A study of Mus musculus with 4 samples.

Results

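The metabotropic glutamate receptor genes Grm2, Grm3, Grm4, Grm5, Grm6, Grm7 and Grm8 were examined in RNA from the mouse lateral habenula. They are 7 of the 53465 gene identifiers in the count matrix, and each was found by its symbol in the GENCODE annotation of GRCm38. The tissue came from socially isolated and from group-housed C57BL/6 mice, with 2 poly(A) libraries from isolated mice and 2 from group-housed mice. The title of the series describes the isolation as acute and names synaptic plasticity in the lateral habenula as its subject. The labels give no age, sex or length of isolation and no genotype beyond the strain. They do not say whether a library was made from 1 animal or from a pool, so the p-values below measure only the spread between these libraries, which may be technical.

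Metabotropic glutamate receptors are G protein-coupled receptors that adjust synaptic transmission more slowly than the ion-channel glutamate receptors. Group I receptors act through Gq and phospholipase C, mostly on the postsynaptic side, where they release calcium from stores and can trigger long-term depression. Group II and group III receptors act through Gi and Go, lower cyclic AMP and mostly reduce transmitter release from presynaptic terminals. The lateral habenula, a small epithalamic nucleus of mainly glutamatergic neurons, sends excitatory output toward midbrain neurons that control dopamine and serotonin release. Here group I is represented by Grm5, group II by Grm2 and Grm3, and group III by Grm4, Grm6, Grm7 and Grm8.

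The libraries held between 20897605 and 26428152 counts. Of 8 lateral habenula markers, 5 had higher and 3 lower means in isolated libraries and 0 passed edgeR's quasi-likelihood test at an adjusted p of 0.05. Isolated libraries were higher without overlap for 4 of the 8 and lower for 1, beside 17.4% and 16.3% of all tested genes. The summed level of the 8 was 1585 and 1404 CPM in isolated replicates 1 and 2, against 1513 and 1419 CPM in group-housed replicates 1 and 2 (CPM, counts scaled to a common library size after TMM normalisation). The habenular orphan receptor gene Gpr151 stood at 426 and 426 CPM in isolated replicates 1 and 2 and at 397 and 352 CPM in group-housed replicates 1 and 2. Markers of neighbouring tissue were present too. The summed level of 11 thalamic markers was 893 and 701 CPM in isolated replicates 1 and 2, against 939 and 1070 CPM in group-housed replicates 1 and 2. That of 11 medial habenula markers was 2085 and 2097 CPM in the isolated libraries, against 1764 and 1673 CPM in the group-housed libraries. In bulk tissue, fewer cells of a type and less RNA per cell cannot be told apart.

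Group II receptor transcripts were the most abundant of the family and Grm6 was at or near 0. Levels between genes were compared as CPM per kilobase of merged exon length. On that scale Grm2 averaged 20.9 ± 0.487 in isolated and 19.8 ± 0.0786 in group-housed libraries (SD, n = 2 each), and Grm3 averaged 18.6 ± 0.727 in isolated and 18.4 ± 2.37 in group-housed libraries. Grm2 lay above Grm3 in 3 of the 4 libraries, and the ranges of these neighbours overlapped. Grm5 followed at 9.53 ± 0.957 CPM per kilobase in isolated and 10.2 ± 0.0036 in group-housed libraries, below Grm3 in all 4. Grm4 averaged 7.14 ± 1.51 and Grm7 6.37 ± 0.585 CPM per kilobase in isolated libraries, against 9.58 ± 0.845 and 7.33 ± 0.214 in group-housed libraries. The ranges of Grm5 and Grm4 overlapped, as did those of Grm4 and Grm7. Grm8 lay far below, at 0.836 ± 0.249 CPM per kilobase in isolated and 0.923 ± 0.156 in group-housed libraries, and the mean of Grm7 over all 4 libraries was 7.79 times that of Grm8. The order and the overlaps depend on the length used. Per kilobase of the longest transcript, Grm2 lay above Grm3 in 4 of 4 libraries, and their ranges did not overlap. Per kilobase of coding sequence, a scale added after the data were seen, Grm5 (mean of 27.9 over the 4 libraries) stood above Grm3 (21.3) in 4 of 4 libraries, and Grm2 (38.0) stayed highest. The mean of Grm7 was 5.28 times that of Grm8 per kilobase of the longest transcript and 4.56 times per kilobase of coding sequence.

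**Figure D1:**
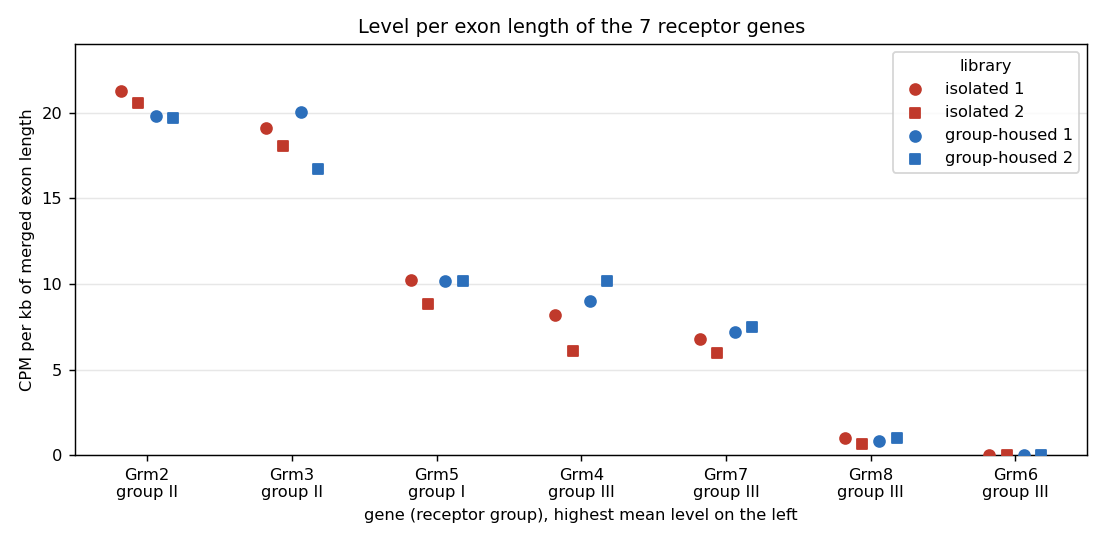
Level of each receptor gene per library, in CPM per kilobase of merged exon length, with genes ordered by their mean over the 4 libraries (red, isolated; blue, group-housed). The group II genes Grm2 and Grm3 sit between 16.7 and 21.3, Grm5, Grm4 and Grm7 between 5.96 and 10.2, Grm8 near 1 and Grm6 at 0 or close to it.

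Summed per kilobase of merged exons, group II made up 60.6 and 64.2% of the level of the 7 genes in isolated replicates 1 and 2, against 59.5 and 55.8% in group-housed replicates 1 and 2. Group III made up 24.1 and 21.1% in the isolated libraries, against 25.3 and 28.7% in the group-housed libraries. The groups of libraries did not overlap in either share, but the shares are parts of the same total and are not independent. Summed CPM per kilobase of group II did overlap (40.3 and 38.6 in isolated, 39.8 and 36.4 in group-housed replicates 1 and 2). That of group III did not (16.0 and 12.7 in isolated, 17.0 and 18.7 in group-housed replicates 1 and 2). Group I, that is Grm5, held 15.3 and 14.7% in the isolated and 15.2 and 15.6% in the group-housed libraries, with overlap. These shares are descriptions, because an exact 2-sided permutation test of 2 libraries against 2 cannot give a p below 0.333. The difference between isolated and group-housed means had the same direction for group II and group III with the longest transcript or the coding sequence as the length. The shares themselves moved with the length, and group II held 50.7% in isolated and 45.9% in group-housed libraries per kilobase of coding sequence.

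The promoter windows of the most abundant member, Grm2, and of the member that was not detected, Grm6, are printed because the family's main contrast in level lies between these genes. Each window runs from 250 bases before to 50 bases after the start in RefSeq (GRCm38.p6) and is given on the gene's own strand, with every CG dinucleotide in capitals. The Grm2 window lies at chr9:106656060-106656359 on the minus strand, and the Grm6 window at chr11:50850435-50850734 on the plus strand.
Grm2: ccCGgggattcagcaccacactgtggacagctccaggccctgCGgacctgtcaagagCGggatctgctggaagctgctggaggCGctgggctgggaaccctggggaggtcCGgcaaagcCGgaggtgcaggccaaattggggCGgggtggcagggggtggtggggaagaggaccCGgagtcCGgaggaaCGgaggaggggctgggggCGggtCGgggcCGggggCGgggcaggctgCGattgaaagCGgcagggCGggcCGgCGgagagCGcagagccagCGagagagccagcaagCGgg
Grm6: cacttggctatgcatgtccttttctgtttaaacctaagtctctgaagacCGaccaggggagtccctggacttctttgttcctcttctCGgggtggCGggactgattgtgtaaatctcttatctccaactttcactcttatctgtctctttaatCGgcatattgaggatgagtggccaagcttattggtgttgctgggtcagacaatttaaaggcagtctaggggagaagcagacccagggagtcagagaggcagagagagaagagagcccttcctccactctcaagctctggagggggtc
The Grm2 window holds 22 CG sites and 72% G or C, and 23.1% of the 32851 promoter windows in the RefSeq table hold as many CG sites or more. The Grm6 window holds 4 CG sites and 49.7% G or C, and 68.6% of the windows hold as many or more. The letters CG read the same on both strands and occur in 94.6% of the windows, with a median of 7. Of the other members with a window, Grm3 holds 11, the windows of Grm7 hold 10 and 15, and those of Grm8 hold 2, 10 and 33 CG sites. Grm4 and Grm5 had no window in the RefSeq table. Among the 5 members with a window, the one richest in CG sites thus belongs to Grm8, the least abundant of the tested members.

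No receptor gene passed the comparison of isolated with group-housed mice. Of the 7 members, 6 had enough counts to be tested and Grm6 did not. In the quasi-likelihood test of edgeR, with p-values adjusted by Benjamini-Hochberg over all 17528 tested genes, 0 members passed an adjusted p of 0.05, where 0.0114% of all tested genes did. DESeq2, limma-voom and edgeR's exact test also called 0 members, whereas they called 0.297%, 0.0114% and 0.468% of all tested genes. At an unadjusted p below 0.05 in the quasi-likelihood test stood 2 members, Grm4 and Grm7, both with lower means in isolated libraries, where 2.26% of all tested genes were lower and 5.09% lay on either side. The median log2 fold change was -0.12 over the tested members, beside 0.0033 over all tested genes. The libraries of the housing conditions did not overlap for 3 members, with isolated libraries lower for 2 (Grm4 and Grm7), where 16.3% of all tested genes were, and higher for 1 (Grm2), where 17.4% were.

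**Figure D2:**
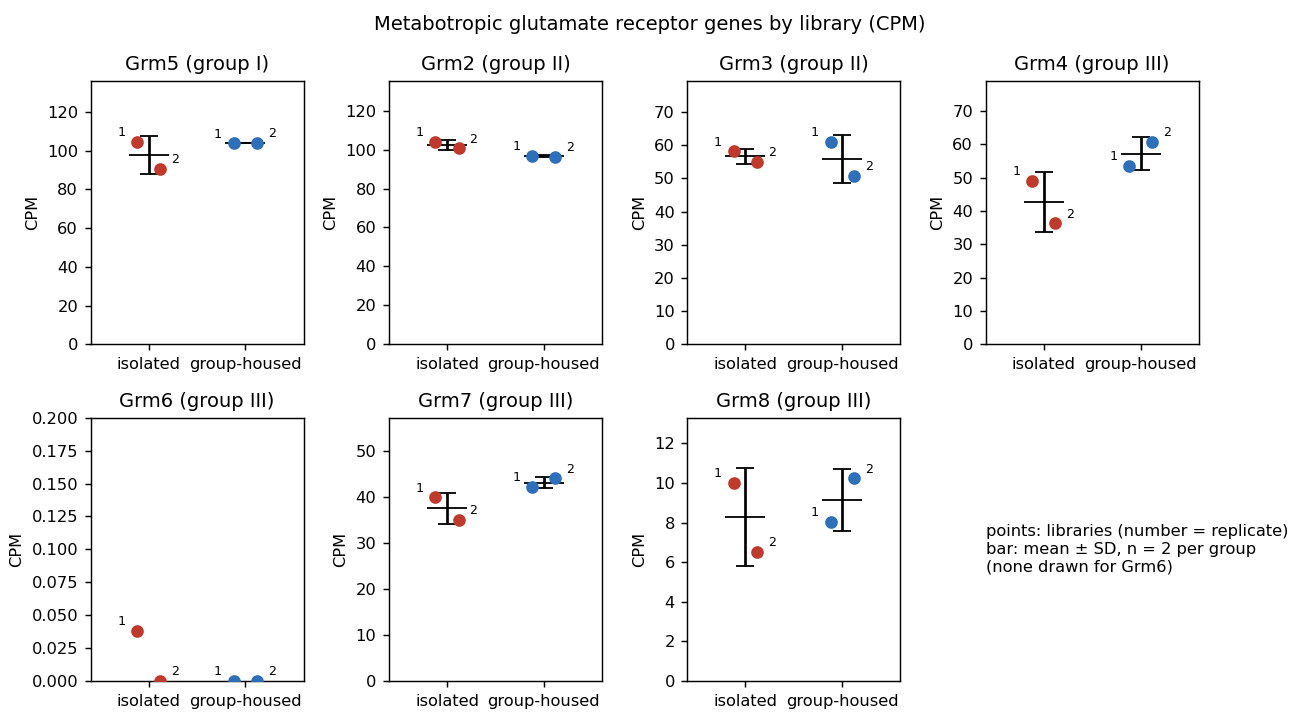
CPM of each receptor gene in the 4 libraries, with isolated libraries on the left of each panel and a vertical scale of its own per gene that starts at 0; bars give the mean and SD of 2 libraries. Isolated replicate 2 is the lowest library for Grm4, Grm5, Grm7 and Grm8, and the libraries of the 2 housing conditions are separate for Grm2, Grm4 and Grm7.

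The group III receptor mGluR4, a presynaptic autoreceptor and heteroreceptor, is encoded by Grm4 (ENSMUSG00000063239), on chromosome 17 (GRCm38, 27422387 to 27521403, minus strand). Grm4 measured 49.1 and 36.3 CPM in isolated replicates 1 and 2, against 53.7 and 60.8 CPM in group-housed replicates 1 and 2. The conditions did not overlap, and isolated replicate 2 was the lowest library. The counts behind these values were 1288 and 961 in the isolated and 1101 and 1563 in the group-housed libraries. The mean was 42.7 ± 9.03 CPM in isolated and 57.2 ± 5.05 CPM in group-housed libraries (SD, n = 2 each), a log2 fold change of -0.43 (SE 0.13, 95% interval -0.72 to -0.13). The difference did not pass the quasi-likelihood test in edgeR (adjusted p = 0.769). Without isolated replicate 1 it did pass, with a log2 fold change of -0.66 and an edgeR adjusted p = 0.0109, in a fit that assumes the lone isolated library to vary like the group-housed ones and that called 0.387% of genes lower. Without isolated replicate 2 the log2 fold change was -0.22 (edgeR adjusted p = 0.780).

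The presynaptic receptor mGluR7, which has a low affinity for glutamate and sits in the active zone, is encoded by Grm7 (ENSMUSG00000056755), a gene of 922 kb on chromosome 6 (110645581 to 111567230, plus strand). Grm7 measured 40.0 and 35.1 CPM in isolated replicates 1 and 2, against 42.3 and 44.0 CPM in group-housed replicates 1 and 2. The housing groups did not overlap, although isolated replicate 1 lay closer to group-housed replicate 1 than to isolated replicate 2. The log2 fold change was -0.20 (SE 0.084, 95% interval -0.39 to -0.010), and the adjusted p = 0.941 came from the same edgeR fit. Without isolated replicate 2 it was -0.11. An annotated antisense gene, Gm20387, overlaps 130 bases of the exons of Grm7 and held 30 to 47 counts per library of its own, whereas Grm7 held 867 to 1132.

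Grm8 (ENSMUSG00000024211), for the presynaptic receptor mGluR8, lies on chromosome 6 (27275119 to 28135178, minus strand). Its level was 10.02 and 6.53 CPM in isolated replicates 1 and 2, against 8.04 and 10.2 CPM in group-housed replicates 1 and 2. The libraries of each condition spread as widely as the conditions differed, and the groups overlapped. The counts were 263 and 173 in the isolated libraries, with exact 95% Poisson intervals of 232 to 297 and 148 to 201 that cover counting error only. These intervals do not overlap, and the libraries were of like size, so the isolated libraries differed by more than counting error. The log2 fold change of -0.15 (SE 0.21) had a 95% interval from -0.64 to 0.34 (edgeR adjusted p = 0.9998). Leaving out isolated replicate 2 gave 0.13, and leaving out group-housed replicate 2 gave 0.032, so no direction can be given. Grm8 is thus the least precisely measured of the tested members.

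Grm6 (ENSMUSG00000000617), for the receptor by which retinal ON bipolar cells sense photoreceptor glutamate, lies on chromosome 11 (50850685 to 50866208, plus strand). It had 1 count in isolated replicate 1 and 0 in isolated replicate 2, against 0 in both group-housed libraries. A count of 0 allows up to 3 counts, which is 0.113 to 0.146 CPM at these depths, and the exact 95% Poisson interval of the 1 count reaches 5.57 counts. Expression was at or below these limits in every library, and no fold change is given.

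The group II gene Grm2 (ENSMUSG00000023192), on chromosome 9 (106643095 to 106656082, minus strand), encodes mGluR2, which restrains glutamate release when transmitter spills out of the synapse. Grm2 measured 104 and 101 CPM in isolated replicates 1 and 2, against 96.9 and 96.4 CPM in group-housed replicates 1 and 2. The spread within each condition was small, and the isolated libraries were the higher ones without overlap. The log2 fold change was 0.082 (SE 0.059, 95% interval -0.053 to 0.22), with an edgeR adjusted p = 0.999. The interval thus reaches 0.22 on the log2 scale at most. An annotated antisense gene overlaps 470 bases of its exons, and that antisense gene had 0 counts in every library.

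Grm3 (ENSMUSG00000003974), on chromosome 5 (9485541 to 9725170, minus strand), encodes mGluR3, which is made by glia as well as neurons and also responds to the peptide transmitter N-acetylaspartylglutamate (NAAG). Its level was 58.2 and 55.1 CPM in isolated replicates 1 and 2, against 61.1 and 50.8 CPM in group-housed replicates 1 and 2. Both isolated libraries lay between the group-housed ones. The log2 fold change was 0.020 (SE 0.092, 95% interval -0.19 to 0.23, edgeR adjusted p = 0.9998), and it became -0.12 when group-housed replicate 2 was left out and 0.16 when group-housed replicate 1 was. Grm3 had 1 annotated transcript, whereas the other members had 4 to 8.

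The group I receptor mGluR5, which couples to phospholipase C and is anchored by Homer proteins, is encoded by Grm5 (ENSMUSG00000049583), on chromosome 7 (87584168 to 88134907, plus strand). Grm5 measured 105 and 90.8 CPM in isolated replicates 1 and 2, against 104 and 104 CPM in group-housed replicates 1 and 2. Isolated replicate 2 stood apart and the other libraries were within 1 CPM of each other. The log2 fold change was -0.091 (SE 0.076, 95% interval -0.27 to 0.083, edgeR adjusted p = 0.9998) and 0.0087 without isolated replicate 2. Its mean of 97.7 ± 9.81 CPM in isolated libraries and 104 ± 0.0370 CPM in group-housed libraries (SD, n = 2 each) therefore rests on 1 library for its difference.

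**Figure D3:**
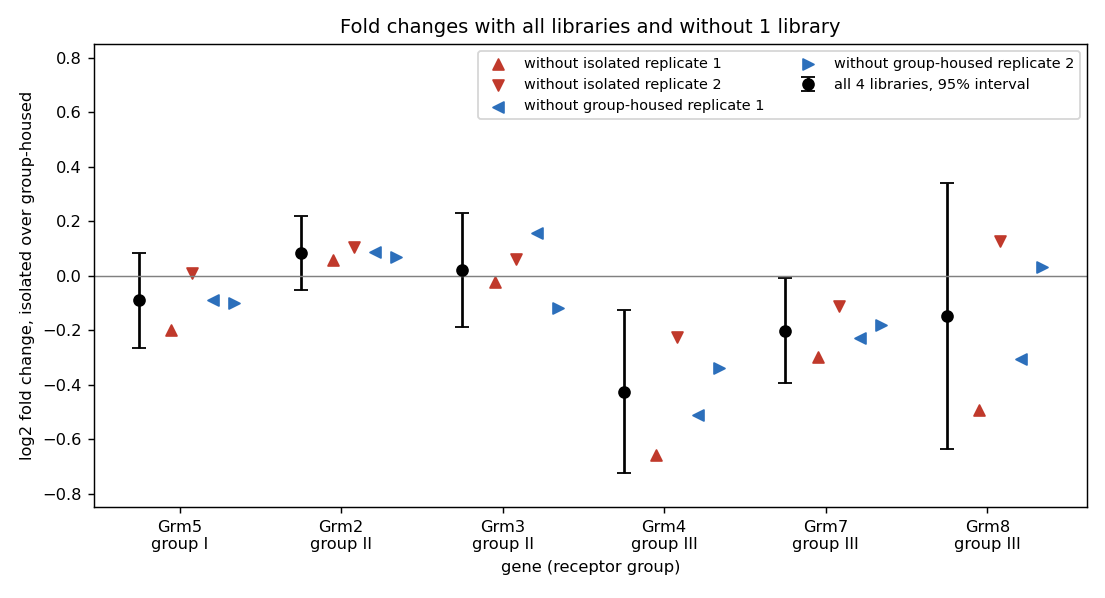
Log2 fold change of the 6 tested receptor genes, isolated over group-housed, from edgeR's quasi-likelihood fit on all 4 libraries (black, with the 95% interval) and from fits without 1 library (triangles). Grm4 ranges from -0.66 to -0.22 and Grm7 from -0.30 to -0.11 across the omissions, and Grm3, Grm5 and Grm8 change sign.

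The group III genes Grm4, Grm7 and Grm8, and the group I gene Grm5, shared their lowest library with the thalamic markers. Relative to each gene's mean log2 level, Grm4 stood at -0.0012 and -0.44 in isolated replicates 1 and 2, against 0.13 and 0.31 in group-housed replicates 1 and 2. The median of the 11 thalamic markers stood at -0.03 and -0.43 in isolated replicates 1 and 2, against 0.14 and 0.35 in group-housed replicates 1 and 2. All 11 thalamic markers had lower means in isolated libraries (median log2 fold change -0.49), 8 of them without overlap beside 16.3% of all tested genes, and 0 passed in edgeR's quasi-likelihood test. Prkcd, a defining marker of thalamic relay neurons, measured 68.6 and 44.3 CPM in isolated replicates 1 and 2, against 84.7 and 127 CPM in group-housed replicates 1 and 2. The part of thalamic tissue in the values of Grm4, Grm5, Grm7 and Grm8 was not tested. Medial habenula markers moved otherwise, with medians of 0.19 and 0.22 in isolated replicates 1 and 2, against -0.13 and -0.26 in group-housed replicates 1 and 2. Of these 11 markers 9 were higher in isolated libraries without overlap, beside 17.4% of all tested genes. The other 2 had lower means, Calb2 (-0.11) without overlap and Wif1 (-0.03) with overlap. The 2 genes of the series that passed the test, Chrnb3 and Slc5a7, belong to that list, which was chosen with earlier results known. Other lists set the same libraries apart. Ependymal markers summed to 64.6 and 127 CPM in isolated replicates 1 and 2, against 64.4 and 59.0 CPM in group-housed replicates 1 and 2, and were highest in the library where Grm4 was lowest. Choroid plexus markers summed to 47.0 and 60.0 CPM in isolated replicates 1 and 2, against 25.8 and 133 CPM in group-housed ones. The sum was highest in the library where Grm4 was highest, group-housed replicate 2, where Ttr alone measured 102 CPM. Kl, Clic6 and Kcne2 were also highest there, whereas Otx2 (24.6 CPM) and Folr1 (1.70 CPM) were highest in isolated replicate 2. The medians of general neuronal markers, group I effectors and postsynaptic anchors were also lowest in isolated replicate 2, at -0.08, -0.16 and -0.13. So were those of glutamate loading, uptake and recycling (-0.12), microglia (-0.10), group II and III effectors (-0.08), desensitisation (-0.06) and NAAG metabolism (-0.06). Apart from the thalamic list, the remaining lists had their lowest median in another library. The part of these lists in the receptor values was not tested.

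**Figure D4:**
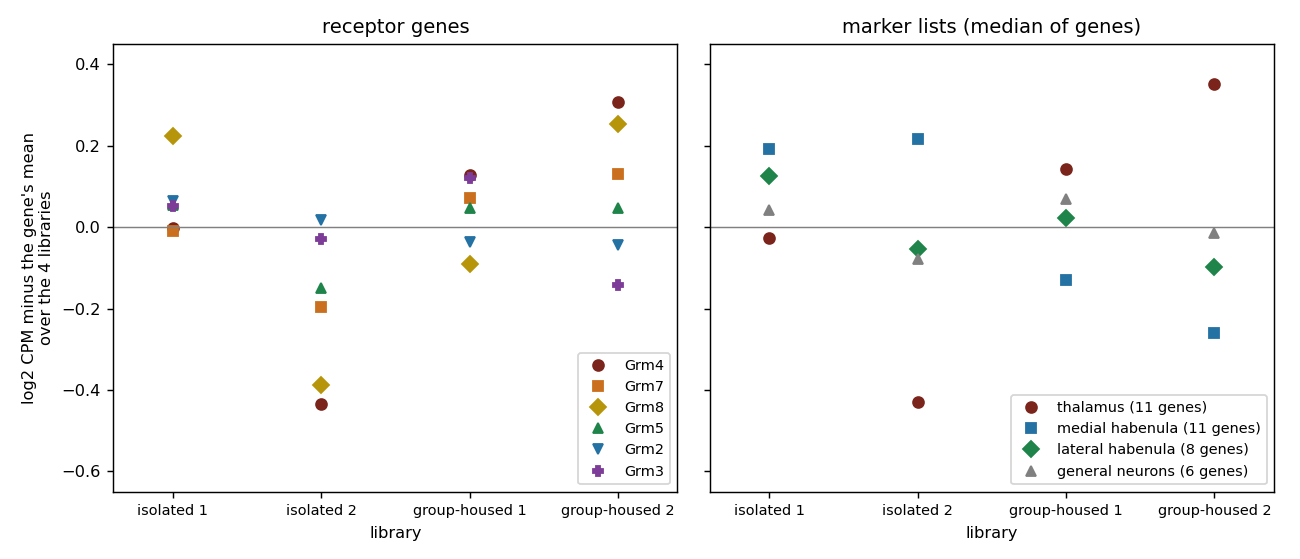
Log2 CPM of each tested receptor gene (left) and median of 4 marker lists (right) in each library, relative to the gene's own mean over the 4 libraries. Grm4 and the thalamic markers are both lowest in isolated replicate 2 (-0.44 and -0.43) and highest in group-housed replicate 2 (0.31 and 0.35).

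Astrocyte markers, given here because Grm3 and Grm5 are also expressed in astrocytes, summed to 3315 and 3502 CPM in isolated replicates 1 and 2, against 3755 and 3547 CPM in group-housed replicates 1 and 2. Of 8 astrocyte markers 7 had lower means in isolated libraries, with a median change of -0.12 on the log2 scale and 0 passing in the edgeR test. Isolated libraries were lower without overlap for 6 of the 8, beside 16.3% of all tested genes. The 6 oligodendrocyte precursor markers, a cell type that also carries Grm3 and Grm5, summed to 827 and 850 CPM in isolated and 941 and 896 CPM in group-housed libraries. All 6 precursor markers had lower means in isolated libraries (median log2 fold change -0.11), 5 without overlap, and 0 passed in the edgeR test. Oligodendrocyte markers summed to 9745 and 11444 CPM in isolated and 12820 and 11928 CPM in group-housed libraries. All 8 had lower means in isolated libraries (median log2 fold change -0.21), 6 without overlap beside 16.3% of all tested genes. All 6 microglia markers also had lower means (median -0.14), 4 of them without overlap. In both lists 0 passed in the edgeR test. The part of glial cells in the receptor values was not tested. General neuronal markers summed to 2941 and 2694 CPM in isolated replicates 1 and 2, against 3011 and 2842 CPM in group-housed replicates 1 and 2.

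The signalling partners of the receptors did not pass either. Of 57 listed partner genes 56 were matched to an identifier and 55 tested, and 0 passed in edgeR's quasi-likelihood test, 22 with higher and 33 with lower means in isolated libraries. Their median log2 fold change was -0.03. The conditions did not overlap for 23 partners, with isolated libraries higher for 8 and lower for 15, beside 17.4% and 16.3% of all tested genes.

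Among effectors of group I receptors 6 of 8 had lower means in isolated libraries (median log2 fold change -0.10). Itpr1, the calcium-store channel opened by the phospholipase C product inositol trisphosphate and the most abundant gene of this role, measured 168 and 145 CPM in isolated replicates 1 and 2, against 184 and 191 CPM in group-housed replicates 1 and 2 (-0.26, edgeR adjusted p = 0.780). Exons of Itpr1, Gnao1, Arrb2, Rgs11, Slc1a2 and Shank3 overlap those of another annotated gene, which makes their counts less certain. Of 7 postsynaptic anchoring genes 5 had lower means, with a median of -0.14, and Ncdn, whose product norbin binds mGluR5, was the most abundant at 779 and 673 CPM in isolated and 829 and 838 CPM in group-housed libraries (-0.20, edgeR adjusted p = 0.974).

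Of 9 effectors of group II and III receptors 7 had lower means in isolated libraries (median log2 fold change -0.11), 5 of them without overlap, as were 16.3% of all tested genes. Gnai1, an inhibitory G protein alpha subunit, measured 86.8 and 77.5 CPM in isolated replicates 1 and 2, against 103 and 95.4 CPM in group-housed replicates 1 and 2 (-0.27, edgeR adjusted p = 0.685). Gnao1, the alpha subunit of Go and the most abundant of the role, measured 905 and 837 CPM in isolated and 885 and 843 CPM in group-housed libraries (0.012). In the role of desensitisation 5 of 9 genes had higher means (median 0.014). Arrb2, the receptor-internalising beta-arrestin 2, measured 59.5 and 55.4 CPM in isolated libraries, against 48.4 and 46.5 CPM in group-housed libraries (0.28, edgeR adjusted p = 0.570). Arrb1, more abundant, measured 328 and 289 CPM in isolated and 318 and 324 CPM in group-housed libraries (-0.06).

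The synaptic partners of group III receptors all had higher means in isolated libraries, 5 of 5 with a median of 0.11 on the log2 scale, and none passed. Grip2, a PDZ scaffold of glutamate receptors, had the smallest p of all partners and measured 90.9 and 87.8 CPM in isolated replicates 1 and 2, against 72.9 and 74.0 CPM in group-housed replicates 1 and 2. The groups were well apart relative to their spread, and the log2 fold change was 0.28 (SE 0.060, edgeR adjusted p = 0.369). Its relative Grip1 measured 40.2 and 41.0 CPM in isolated libraries, against 35.2 and 33.3 CPM in group-housed libraries (0.24, edgeR adjusted p = 0.769). Elfn1, the adhesion protein that recruits group III receptors across the synaptic cleft, measured 204 and 186 CPM in isolated libraries, against 191 and 171 CPM in group-housed libraries (0.11). Of the cascade that serves mGluR6 in the retina, 4 of 5 genes passed the count filter although Grm6 did not, 4 had higher means in isolated libraries and 0 passed the test. Rgs11 was the most abundant at 21.6 and 24.2 CPM in isolated and 19.2 and 25.8 CPM in group-housed libraries.

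All 5 genes listed for NAAG metabolism, among them the cystine-glutamate exchanger, had lower means in isolated libraries (median -0.11), 4 of them without overlap beside 16.3% of all tested genes, and none passed. Slc7a11, the exchanger that exports glutamate onto extrasynaptic receptors, measured 110 and 109 CPM in isolated libraries, against 125 and 120 CPM in group-housed libraries (-0.16, edgeR adjusted p = 0.882). Of 8 genes of glutamate loading, uptake and recycling, 6 had lower means (median -0.09). Slc17a7, the vesicular transporter VGLUT1, stood apart with 215 and 252 CPM in isolated replicates 1 and 2, against 183 and 196 CPM in group-housed replicates 1 and 2 (0.30, edgeR adjusted p = 0.716). The medial habenula expresses Slc17a7, as do hippocampus and cortex. Hippocampus and cortex markers summed to 200 and 199 CPM in isolated replicates 1 and 2, against 176 and 169 CPM in group-housed replicates 1 and 2, and 5 of the 7 tested had higher means in isolated libraries (median 0.33, 0 passing). The part of either tissue in the value of Slc17a7 was not tested. Slc1a2, the main astrocytic glutamate transporter and the most abundant of the role, measured 1647 and 1416 CPM in isolated and 1740 and 1598 CPM in group-housed libraries (-0.12). Without isolated replicate 1 the test called 4 partners beside Grm4. These were Adcy1 (-0.61), Shank3 (-0.45) and Itpr1 (-0.37) as lower and Slc17a7 (0.41) as higher, with edgeR adjusted p-values from 0.0032 to 0.0338, and the fit called 1.22% of all genes.

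**Figure D5:**
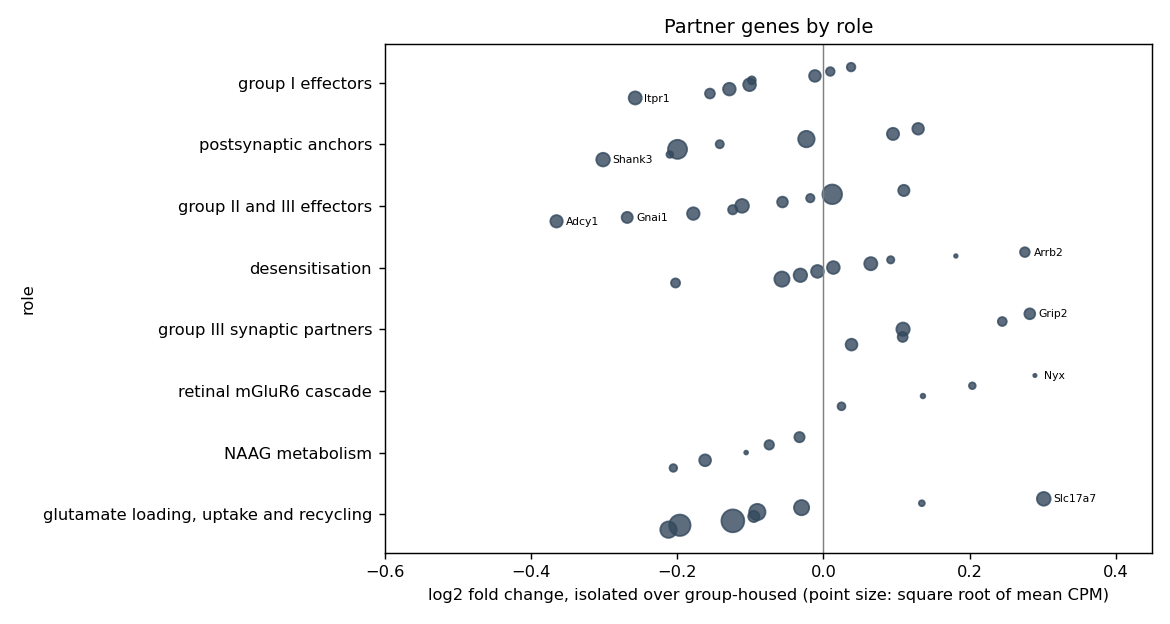
Log2 fold change, isolated over group-housed, of the tested partner genes by role, with points sized by the square root of the mean CPM. Genes beyond 0.25 in size are labelled; Adcy1 at -0.36 is the lowest and Slc17a7 at 0.30 the highest.

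The genes whose profile over the 4 libraries was most like that of Grm4 were Diras2, Zdhhc22 and Kcnq3, at root mean square distances of 0.043, 0.045 and 0.055 in centred log2 CPM. They were taken from 5356 tested genes with a mean level within 2-fold of Grm4, of which 15 came within 0.1. Diras2, a small GTPase, measured 78.0 and 59.4 CPM in isolated replicates 1 and 2, against 89.3 and 93.5 CPM in group-housed replicates 1 and 2, with the same lowest library as Grm4. The flat profile of Grm2 had many equals, with 3328 of 4308 genes within 0.1, and the nearest were Sec16a, Zc3h18 and Fcho1 at 0.0026 to 0.0045. With 4 libraries such likeness is a description only.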

How the data were processed

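Gene expression was measured by RNA sequencing of lateral habenula tissue in 2 libraries from socially isolated and 2 from group-housed mice, made with a stranded poly(A) kit from Trizol-extracted RNA per the labels' protocols. Tools listed in the submitters' processing notes are HTSeq, TopHat2 2.1.1, edgeR and CASAVA, with the build GRCm38. The sources used here do not say how counting treated strand or which annotation it used, and reads of antisense partners may be included. The authors deposited raw counts per Ensembl gene, on which every test was run. The authors also deposited a scaled signal per library, which was each count times 1 constant (0.0387 to 0.0499) and was not used further.

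Identifiers were matched to GENCODE M21 (GRCm38), which named 53360 of 53465, and 1 listed partner, Tamalin, was not matched. A further gene that had been listed is not reported here. CPM used TMM-scaled library totals of 20516400 to 26478300. The housing conditions were compared in R 4.3.3 with edgeR 4.0.16 (filterByExpr, glmQLFit and glmQLFTest, 2-sided, no covariate, 2 residual degrees of freedom), with Benjamini-Hochberg adjustment at 0.05. The fit was also run on simulated counts with known fold changes and independent libraries, which cannot address tissue differences between libraries. Standard errors are the log2 fold change over the square root of F, and 95% intervals use the moderated degrees of freedom. Centred log2 CPM used a prior count of 2. Alternatives were RLE scaling, library totals, other count filters, DESeq2 1.42.0, limma-voom 3.58.1, edgeR's exact test, a replicate block, the omission of each library and other gene lengths. The members and lists were chosen with earlier results of these data known. All members were named, as were the most abundant partner of each role and the 5 partners with the smallest p. For the member highest per kilobase and that with the smallest p, the 3 genes with the nearest profiles were named. Receptor protein sequences were not analysed here.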

Additional observations from a re-analysis of the deposited data

How the results depend on the processing

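The fold changes of Grm2, Grm4 and Grm7 kept their direction in all 12 alternatives, and those of Grm3, Grm5 and Grm8 changed sign only where a library was left out. Without 1 library the log2 fold change ranged from -0.20 to 0.0087 for Grm5, -0.12 to 0.16 for Grm3, -0.66 to -0.22 for Grm4 and -0.49 to 0.13 for Grm8. The median of the tested members ranged from -0.25 to 0.034 (0.034 without isolated replicate 2). Members called ranged from 0 to 1 (Grm4, without isolated replicate 1), partners called from 0 to 4, and genes called from 1 (without either group-housed replicate) to 221 (without isolated replicate 1). All tested genes called numbered 2 in the main test, 15 with no low-count filter, 52 with DESeq2 and 82 with edgeR's exact test, with 0 members and 0 partners among them in each. The cause was not tested. The replicate numbers of the titles mark no stated pairing, and deviations of same-numbered libraries correlated at 0.141 across genes. With a replicate block 64 genes, 0 members and 0 partners were called. With the longest transcript as the length, the share of the 7 genes in isolated and group-housed libraries was 16.8 and 16.9% for group I, 55.8 and 50.9% for group II and 27.4 and 32.2% for group III. With the coding length, added after seeing the data, these were 22.6 and 22.7%, 50.7 and 45.9%, and 26.8 and 31.4%. Depth limits Grm6, and 2 libraries per condition limit every comparison.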
